A study of Mus musculus with 4 samples.

Results

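An exon block is a stretch of the genome covered by overlapping RefSeq exons that the authors had merged into 1 region. Blocks of 3000 bases or more were chosen by length alone, and 2511 of the 199684 blocks on the chromosomes used for matching qualified. They made up 1.26% of the blocks but held 18.7% of the exonic bases, and their median length was 3897 bases. The choice used no measured value. Of the blocks near the limit, 2 had exactly 3000 bases and 14 were 1 to 10 bases shorter. The study sequenced RNA from the intestine of C57BL/6 mice aged 9 to 10 weeks with 35-color reads of the SOLiD system, in which each color encodes a pair of neighbouring bases. Polyadenylated RNA of each tissue gave 1 cDNA fragmented library, made by SMART cDNA synthesis followed by fragmentation of the double-stranded cDNA, which does not keep the strand. For small intestine and colon alike the labels also give a library of ribosomal RNA depleted RNA made with the Whole Transcriptome Analysis Kit, in which the RNA itself is fragmented and the strand is kept. The methods of the study name jejunum and distal colon, 6 mice in total, and polyadenylated RNA as input for the kit. The kit libraries that the study tabulates hold longer reads, and more of them, than the rRNA-depleted libraries used here (36419942 and 37466674 reads in total). It is therefore not clear whether the methods describe the input of these libraries. There was 1 library per tissue and protocol, and which mice went into which library was not given in the sources used here, although the study describes both tissues as taken from the same animals, so no replicate error could be calculated and no test was run. Intervals are 95% intervals (Wilson for shares, exact Poisson for levels, exact binomial for ratios). Those of levels, ratios and shares of reads cover counting error only. They take each read as independent, so reads stacked on 1 position can make them too narrow. Those of shares of blocks and of medians over sites treat blocks or sites of 1 library as separate units. They leave out the error of counting reads and are descriptions.

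Most mammalian messenger RNAs are joined from many short exons, and the longest exon is commonly the last one, which carries the end of the coding sequence and the 3' untranslated region up to the site where the poly(A) tail is added. Internal exons of such a length are uncommon and often encode repetitive scaffold, cytoskeleton or lipoprotein domains, and some nuclear noncoding RNAs have a single exon. In SMART synthesis an oligo-dT primer starts the first cDNA strand at runs of A, such as the poly(A) tail, and the reverse transcriptase then moves toward the 5' end of the RNA, whereas RNA fragmented before reverse transcription is copied in short pieces.

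Within a block no splice border between its edges has to be crossed, except in the 157 blocks in which an annotated junction of another transcript begins or ends inside. Strand and position came from the mm9 annotation. The last exon of a transcript accounted for 1919 blocks, an internal exon for 105, a first exon for 29, and a transcript without junctions (single) for 134, together 2187 blocks of known strand. A further 277 blocks had genes on both strands, 28 could not be placed clearly, and 19 matched no annotated gene. Coding bases made up 99.6% of the internal blocks but 15.8% of the last blocks, of which 1151 held under 10% coding bases. The longest block, 83437 bases at chr7:150399016-150482452, overlapped annotated exons in 0.145% of its length, so it is not assigned to a gene.

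Examples of the sequences examined below are shown first. They are the runs of T and A in last blocks next to which the cDNA fragmented libraries held the most reads, and the poly(A) signals at the ends of 3 blocks, read 5' to 3' on the strand of the gene from mm9 (NCBIM37), with the run or the signal in capitals. The T runs lie in the last exons of Gcnt3, a glycosyltransferase that branches mucin glycans (22 T, chr9:69880252-69880281, minus strand), Lgr4, a receptor for R-spondins (22 T, chr2:109853629-109853658, plus strand), and Ppm1h, a protein phosphatase (31 T, of which the printed window at chr10:122381745-122381774 on the plus strand holds the first ones). The A runs lie in those of Gda, a guanine deaminase (16 A, chr19:21466748-21466777, minus strand), and Vdr, the vitamin D receptor (16 A, chr15:97685841-97685870, minus strand). The signals lie 17, 16 and 18 bases before the 3' edge in Ahnak, a giant scaffold protein (chr19:9093655-9093684, plus strand), Plec, which links intermediate filaments (chr15:76001405-76001434, minus strand), and B3galt5, a galactosyltransferase (chr16:96541434-96541463, plus strand).
Gcnt3, T run: cttccTTTTTTTTTTTTTTTTTTTTTTaag
Lgr4, T run: gagtcTTTTTTTTTTTTTTTTTTTTTTgca
Ppm1h, T run: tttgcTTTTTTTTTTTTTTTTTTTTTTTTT
Gda, A run: atgatAAAAAAAAAAAAAAAAcctcttcat
Vdr, A run: catacAAAAAAAAAAAAAAAAccctagaga
Ahnak, poly(A) signal: acaagccaAATAAAgctctttattaaccct
Plec, poly(A) signal: cgcccctcAATAAAagcaattccaaccttc
B3galt5, poly(A) signal: ttatctttAATAAAaattaagttataagca

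The cDNA fragmented libraries held 22484041 (small intestine) and 24798934 (colon) uniquely placed reads, the rRNA-depleted ones 2035386 and 3478387, so values from the latter are less precise. Markers of each tissue were higher in its own libraries by both protocols. The colon carbonic anhydrase Car1 had 65320 against 0 reads per 1000000 by cDNA fragmentation and 7382 against 33.4 by rRNA depletion, and the small intestine sucrase Sis had 2991 against 7.86 and 6340 against 73.9. The pancreatic enzymes Cpa1, Cel and Ctrb1 had 283 to 784 reads per 1000000 in the rRNA-depleted small intestine library and 37.1 to 71.5 in the cDNA fragmented colon library, against at most 2.87 in the other libraries, while another acinar gene, Amy2a5, had 0 reads in all 4. The smooth muscle genes Myh11, Acta2 and Des were higher in colon than in small intestine by both protocols, at 73.9 to 763 against 25.4 to 235 reads per 1000000 over the libraries of each tissue. Reads of the Y-linked genes Eif2s3y, Kdm5d and Uty were 0 in the cDNA fragmented small intestine library, which allows up to 3 reads each, and 18.2 to 98 per 1000000 in the other libraries, and Ddx3y had 0.845 against 40 to 48.9. Xist had 77.9 reads per 1000000 in that library and 1.25 to 4.42 in the others. The cDNA fragmented libraries of the tissues thus differed in the sex-linked RNAs they held. So did the small intestine libraries of the protocols, and the labels give no sex. The part of these differences in the results on long blocks was not tested.

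By cDNA fragmentation the long blocks held 6.79% (small intestine) and 6.12% (colon) of exon reads, and by rRNA depletion 12.8% and 12.6%. Blocks of 1000 to under 3000 bases moved the same way, from 22.8% and 20.6% to 37.1% and 30.1%. At least 1 read was found for all but 125, 110, 218 and 145 of the long blocks (in the order small intestine and colon cDNA fragmented, then small intestine and colon rRNA-depleted, which is kept below), and 64 had none in any library. The median level was 1.63, 1.8, 3.52 and 4.06 RPKM, that is, reads per 1000 bases of block and 1000000 uniquely placed reads.

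The highest levels belonged to a few blocks. In the cDNA fragmented small intestine library the 5 leading blocks included, below the highest, those of Fam23a (174 RPKM), the copper transporter Slc31a1 (173), the lysosomal protease Ctsb (161) and the citric acid cycle enzyme Ogdh (139). In that of colon they included Tgoln1, a protein of the trans-Golgi network (422 RPKM), the paraspeckle RNA Neat1 (237), Gcnt3 (200) and Ahcyl2 (199). In the rRNA-depleted small intestine library they included Apob, the apolipoprotein of chylomicrons (1181 RPKM), the nuclear RNA Malat1 (892), Gda (294) and Mxd1, a repressor of the Myc network (217), and in that of colon Tgoln1 (561 RPKM), Malat1 (509), Vdr (224) and Ahcyl2 (210).

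Internal and first blocks differed more between the protocols than last blocks did. Among the internal blocks with at least 20 reads in the pair of libraries, 75 of 77 in small intestine and 81 of 87 in colon had more RPKM in the rRNA-depleted than in the cDNA fragmented library, with a median ratio of 8.11-fold and 8.78-fold. For last blocks the median ratio was 1.81-fold and 2.13-fold, for the 9 and 16 first blocks 5.22-fold and 10.9-fold, and for exon blocks of all lengths 0.881-fold and 1.14-fold. Internal blocks of 1000 to under 3000 bases had ratios of 5.96-fold and 6.92-fold, so the difference was not particular to the length limit. Of all reads in long blocks, internal ones held 1.68%, 0.904%, 10.6% and 2.61%. The high value of the rRNA-depleted small intestine library rested on Apob, without which the shares were 0.957%, 0.89%, 3.7% and 2.44%.

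The first block of Fat1, an atypical cadherin, lies at chr8:46035562-46038835 and is coding over 99.8% of its length. Its level was 0.489 and 0.185 RPKM in the cDNA fragmented libraries (36 and 15 reads; intervals 0.343 to 0.677 and 0.103 to 0.305) and 89 and 35.8 RPKM in the rRNA-depleted ones (593 and 408 reads; intervals 82 to 96.4 and 32.4 to 39.5). The internal block of the same gene, chr8:46108158-46112225, had 1.31, 0.585, 70.2 and 26.4 RPKM. Both blocks were thus far lower by cDNA fragmentation in both tissues, and the block nearer to the 5' end of the gene was the lower one by cDNA fragmentation. The block of Srrm2, a component of the spliceosome, rose less, with 4.27, 7.73, 53 and 19.3 RPKM, and that of Golgb1, the Golgi tether giantin, had 5.38, 6.19, 8.72 and 3.14 RPKM and was not higher by rRNA depletion in colon.

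To compare the ends of a block, reads of either strand were counted in its first and last 1000 bases, taken in the direction of the gene, and a log2 ratio of 5' to 3' reads was taken after 1 read had been added to each. In the cDNA fragmented libraries 820 of 1230 blocks with at least 100 reads (66.7%, interval 64 to 69.2) and 931 of 1334 (69.8%, 67.3 to 72.2) had fewer reads at the 5' end. In the rRNA-depleted libraries the direction was the other way, as 165 of 532 (31%, 27.2 to 35.1) and 259 of 841 (30.8%, 27.8 to 34) did. The median log2 ratios were -0.91, -1.10, 0.41 and 0.46.

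The blocks compared above differ between libraries, since deeper libraries admit weaker blocks. In the 445 last blocks with at least 100 reads in all 4 libraries the medians were -1.21, -1.28, 0.51 and 0.49, and 73.3%, 75.1%, 28.3% and 30.6% had fewer reads at the 5' end. Within the same block, the cDNA fragmented library had the lower 5'/3' ratio in 400 of 472 last blocks of small intestine (median difference -1.77) and in 640 of 757 of colon (-1.67). The plot of the 2 ratios against each other shows these blocks below its diagonal. Between tissues the ratio of a last block moved little, with a median difference of -0.11 by cDNA fragmentation (1102 blocks, Pearson r 0.96) and -0.08 by rRNA depletion (450 blocks, r 0.88). These correlations are descriptions over blocks, which share their libraries, sequence and annotation.

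The contrast depended on the kind of block. In the 17 single blocks with 100 reads in all 4 libraries, every block had fewer reads at the 5' end in both cDNA fragmented libraries. The medians were -4.48, -4.09, -0.81 and -0.82, so here those of the rRNA-depleted libraries lay toward the 3' end as well. By rRNA depletion 11 (64.7%, interval 41.3 to 82.7) and 12 (70.6%, 46.9 to 86.7) of the 17 had fewer reads at the 5' end. Both intervals hold 50%. Among all single blocks with 100 reads in the rRNA-depleted library itself, 12 of 18 in small intestine (66.7%, 43.7 to 83.7) had fewer reads at the 5' end. In colon 26 of 35 did (74.3%, 57.9 to 85.8), and this interval excludes 50%. Among last blocks with 100 reads in all 4 libraries, the 23 with at least 50% coding bases had medians of -2.49, -2.32, 0.02 and 0.29. The 327 with under 10% coding bases had -1.02, -1.08, 0.60 and 0.50. The 15 internal blocks had medians of -1.43, -1.27, 0.26 and 0.00. By its median, the 3' excess by cDNA fragmentation was weakest in the shortest last blocks. The medians were -0.83 and -0.86 at 3000 to under 4000 bases (184 blocks), -1.46 and -1.61 at 4000 to under 5000 (123 blocks) and -1.47 and -1.59 at 5000 bases or more (138 blocks). In the same order, 71.2%, 77.2% and 72.5% of blocks in small intestine and 73.9%, 76.4% and 75.4% in colon had fewer reads at the 5' end. The end windows lie farther apart in longer blocks, and the part of this distance was not tested. When each block was instead divided into 3 equal parts and the outer parts were compared, last blocks of 1000 to under 3000 bases had medians of -0.14, -0.16, 0.39 and 0.46, against -0.82, -0.98, 0.35 and 0.38 in the long ones, so the 3' excess by cDNA fragmentation was smaller in shorter last exons.

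The profile before the 3' edge showed where these reads lay. Over the 445 last blocks, the 100 bases next to the edge held 0.700, 0.602, 0.412 and 0.396 times the mean coverage of the last 3000 bases. These values were below those of the neighbouring bin in all 4 libraries. Each read was placed by its middle base and matched within exons, so the outermost bases could hold no read. The study also describes the removal of transcript ends from the cDNA fragmented libraries. The part of either in the lower values was not tested. In the cDNA fragmented libraries coverage was highest 200 to 299 bases before the edge, at 1.5 and 1.69 times the mean. It then declined to 0.818 and 0.783 at 1900 to 1999 bases. In the rRNA-depleted libraries it rose slowly away from the edge, with 0.772 and 0.821 at 200 to 299 bases and 1.12 and 1.09 at 1900 to 1999.

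**Figure D1:**
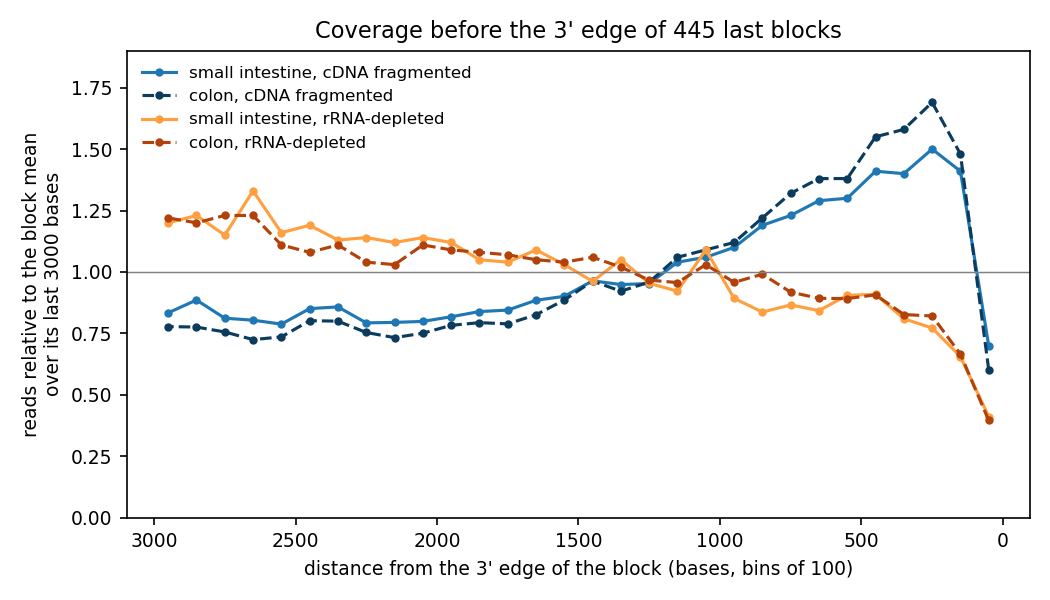
Mean read coverage in bins of 100 bases (vertical, relative to the mean of each block over its last 3000 bases) against the distance from the 3' edge (horizontal, the edge at the right) for 445 last blocks with at least 100 reads in all 4 libraries, 1 line per library. The cDNA fragmented lines peak at 1.5 and 1.69 near the edge, and the rRNA-depleted lines stay under 1 there and drop to 0.412 and 0.396 in the last bin. The outermost bases of that bin could hold no read in any library, since reads are placed by their middle base.

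Individual genes showed the contrast plainly. The last exon of Ahnak at chr19:9076189-9093685 is 17497 bases long and 95% coding. Its first and last 1000 bases held 12 and 1169 reads in the cDNA fragmented library of small intestine and 26 and 2171 in that of colon, but 159 and 147 and 335 and 396 in the rRNA-depleted ones. The log2 ratios were -6.49, -6.33, 0.11 and -0.24. Its level was 6.79 and 9.13 RPKM by cDNA fragmentation and 80.2 and 98 RPKM by rRNA depletion. The gaps inside this block are in all 4 libraries, and 73.1% of its possible 35-base reads occur once in the exon reference, against 96.6% over all exon positions tested.

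Plec gave a sharper step, since its last exon at chr15:76001405-76008815 had 0 reads in the first 1000 bases of either cDNA fragmented library, which allows up to 3 reads, against 1862 and 3615 in the last 1000. The rRNA-depleted libraries had 169 and 245 reads at these ends in small intestine and 55 and 101 in colon. As a level the block had 11.8, 20.7, 78.3 and 20.1 RPKM. It was therefore higher in colon by cDNA fragmentation (1.76-fold, interval 1.66 to 1.86) and lower in colon by rRNA depletion (0.257-fold, 0.231 to 0.285).

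In Apob the internal block at chr12:8012542-8020008 is coding throughout. Its end windows held 432 and 3425 reads in the cDNA fragmented small intestine library and 11 and 77 in that of colon, against 1730 and 1810 and 102 and 95 in the rRNA-depleted ones. The 3' excess by cDNA fragmentation was thus of similar size in a tissue with a high level (64.9 RPKM, log2 ratio -2.98) and in one with a low level (1.12 RPKM, -2.70). By rRNA depletion the end windows held similar numbers of reads, with log2 ratios of -0.07 and 0.10. Between them the counts were uneven, from 177 to 1686 reads per 200 bases in small intestine and from 5 to 55 in colon.

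**Figure D2:**
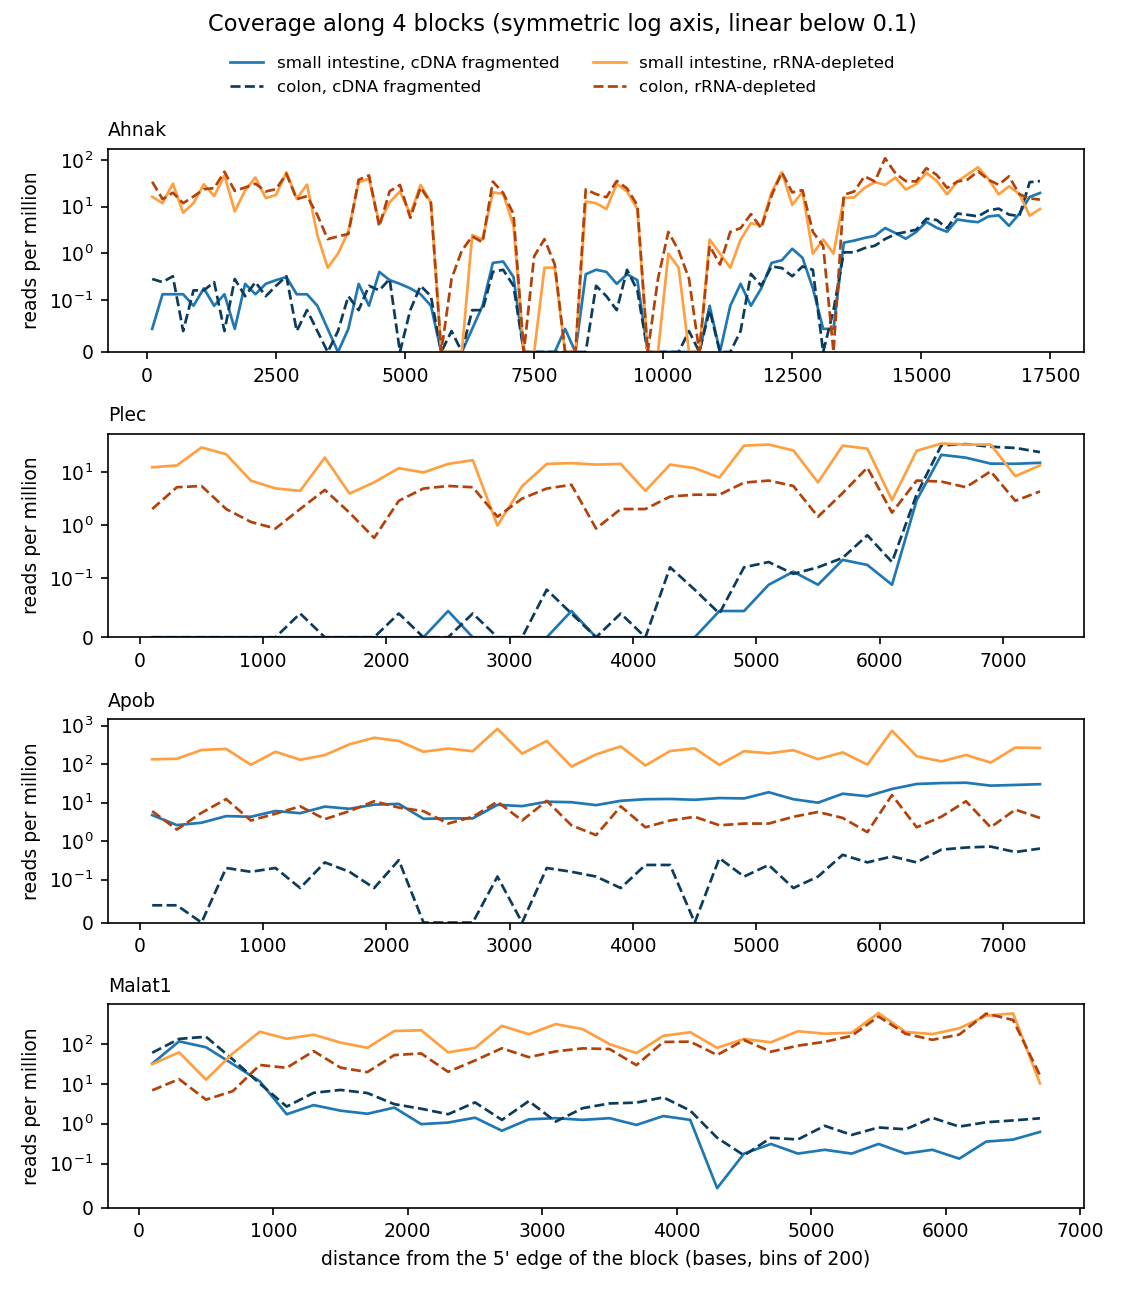
Reads per 1000000 uniquely placed reads in bins of 200 bases (vertical, symmetric log axis, linear below 0.1) against the distance from the 5' edge (horizontal) for the long blocks of Ahnak, Plec (last exon), Apob and Malat1, 1 line per library. In Ahnak, Plec and Apob the cDNA fragmented lines rise toward the 3' edge while the rRNA-depleted lines vary along the exon without a rise of that size. In Plec the last 1000 bases held more reads than the first 1000 by rRNA depletion as well. In Malat1 the cDNA fragmented lines are highest in the first 1000 bases.

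Some blocks went the other way. Malat1, the nuclear RNA at chr19:5795690-5802671, held 6178 and 9912 reads in its first 1000 bases and 53 and 152 in its last 1000 by cDNA fragmentation (log2 ratios 6.84 and 6.02), but 751 and 2795 and 211 and 4118 by rRNA depletion (-1.89 and -4.28). Here each protocol had the opposite direction from its median over long blocks, in both tissues. Genes on both strands overlap this block (425 bases of the other strand), and 100% of its reads in both rRNA-depleted libraries were on the strand of Malat1.

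In other blocks the 5' excess was shared by all 4 libraries. In Ogdh the log2 ratios were 5.58, 4.90, 4.32 and 4.89. Ank3, the membrane adaptor ankyrin G, had 2.52, 3.11, 4.15 and 3.58, and Elavl1, an RNA-binding protein that stabilises transcripts, had 3.52, 2.91, 3.07 and 4.20. Annotated exons covered 30.8% of the Ogdh block. In these 3 blocks the reads were concentrated near the 5' edge whichever protocol was used.

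Runs of T on the strand of the gene marked steps in the coverage of the cDNA fragmented libraries. Runs of at least 10 T (TTTTTTTTTT) were searched on the strand of the gene, and runs of A (AAAAAAAAAA), the same letters on the other strand, were searched alongside. Of the 1919 last blocks, 41.7% held a run of T and 33.5% a run of A. Reads were compared in 300 bases on each side, beyond a gap of 35 bases, at sites with at least 20 reads. At runs of T the median log2 ratio of upstream to downstream reads was -0.81, -0.86, 0.00 and 0.00, with 651, 653, 251 and 364 sites. More reads lay upstream at only 21.8% and 25.6% of sites by cDNA fragmentation, and at 49.4% and 48.1% by rRNA depletion.

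The step grew with the length of the run. At 10 to 14 T the medians in the cDNA fragmented libraries were -0.56 and -0.55, at 15 to 19 T -1.36 and -1.22, and at 20 T or more -3.72 and -3.39 (62 sites each), equal to 13.2-fold and 10.5-fold more reads downstream. The rRNA-depleted libraries had -0.11 and 0.35 at 20 T or more, over 18 and 23 sites. Next to these longest runs 98.9% of upstream and 95.9% of downstream start positions were unique in the reference by exact match. The authors allowed up to 3 mismatches, so fewer positions may have been unique in their matching. Runs of A had medians of 0.22, 0.15, 0.13 and -0.03, so no step of this size was seen at the same letters on the other strand.

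The printed sites show the range. At the run of 31 T in Ppm1h the cDNA fragmented libraries held 6 and 1 reads upstream and 759 and 394 downstream, whereas the rRNA-depleted ones held 18 and 18 and 27 and 41. Across the 22 T of Lgr4 the counts were 188 and 848, 195 and 697, 16 and 40, and 121 and 93, a deficit upstream in 3 of the 4 libraries. In Gcnt3 they were 110 and 585, 404 and 2783, 9 and 34, and 49 and 270, and here the rRNA-depleted libraries had the deficit too (log2 ratios -1.81 and -2.44, against -2.40 and -2.78). At the 16 A of Gda the counts were 1037 and 1223, 72 and 113, 173 and 152, and 27 and 20. Vdr differed, with 160 and 525 and 342 and 835 by cDNA fragmentation but 452 and 75 and 561 and 100 by rRNA depletion.

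**Figure D3:**
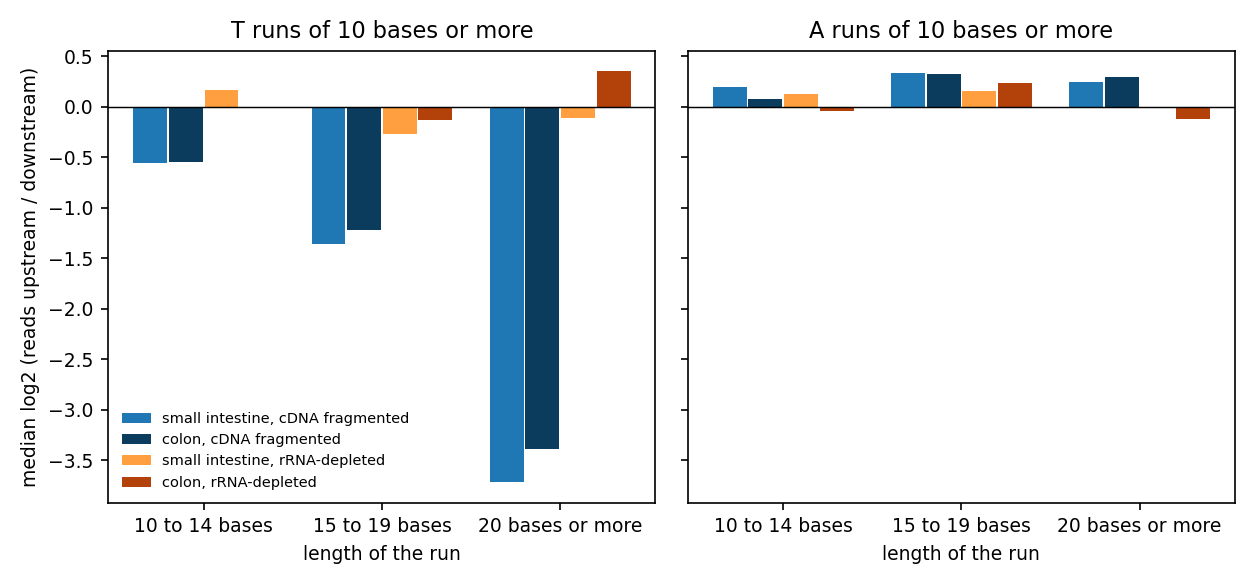
Median log2 ratio of reads in 300 bases upstream to 300 bases downstream of T runs (left) and A runs (right) in last blocks (vertical), by length of the run (horizontal), 1 bar per library, over sites with at least 20 reads. The cDNA fragmented bars at T runs reach -3.72 and -3.39 at 20 bases or more, a median of 0.00 shows no bar (colon, rRNA-depleted, 10 to 14 T), and no value is drawn for A runs of 20 bases or more in the rRNA-depleted small intestine library, where under 10 sites had 20 reads.

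Last blocks with a run of at least 20 T between their end windows (60 blocks, of which 50, 53, 17 and 29 had 100 reads and were counted) had 5'/3' medians of -2.98, -2.77, 0.87 and 0.66. Those without a run of 10 T there (1405 blocks, 774, 866, 307 and 518 counted) had -0.75, -0.93, 0.41 and 0.48, and those among the 795 blocks with neither a T nor an A run anywhere (400, 451, 154 and 270 counted) had -0.78, -1.04, 0.36 and 0.46. The 3' excess by cDNA fragmentation was therefore present in blocks without any such run. Blocks with a run of at least 15 A between their end windows (93 blocks, 67, 69, 19 and 40 counted) had a weaker 3' excess or none by cDNA fragmentation, with medians of 0.19 and -0.29, and 46.3% (interval 34.9 to 58.1) and 58% (46.2 to 68.9) of those counted had fewer reads at the 5' end. Their rRNA-depleted medians were 0.69 and 0.94. Blocks with a long T run were also longer (median 5033 against 3769 bases among those counted in the cDNA fragmented small intestine library), and the part of length in this difference was not tested.

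The canonical poly(A) signal AATAAA lay within the last 50 bases of 1307 of 1919 last blocks (68.1%), and 83.1% held AATAAA or its variant ATTAAA there. In a window of 50 bases that begins 500 bases before the edge, 3.07% held AATAAA, and last blocks of 1000 to under 3000 bases held it at their ends in 60.1%. Inside the blocks there were 4065 copies of AATAAA, and those with at least 20 reads gave median upstream to downstream log2 ratios of 0.12, 0.14, 0.28 and 0.20, with binomial intervals of the median over sites that exclude 0 in all 4 libraries (0.11 to 0.44 in the rRNA-depleted small intestine library). Among 5995 copies of its reverse complement TTTATT the medians were -0.08, -0.08, 0.00 and 0.11, and the interval excluded 0 in 3 of the 4 libraries. The direction was that of AATAAA in the rRNA-depleted colon library (0.03 to 0.15) and the other one by cDNA fragmentation. With windows of 200 bases the interval held 0 in the rRNA-depleted colon library (-0.02 to 0.11) and reached 0.00 in the cDNA fragmented colon library (-0.11 to 0.00). Next to an inner AATAAA the coverage was lower, at 0.742, 0.644, 0.852 and 0.88 times the mean of the surrounding 1000 bases in the 50 bases just after the signal, against 1.12, 1.1, 1.15 and 1.04 in a window of 50 bases that begins 200 bases before it. The dip was not particular to the signal, as the 50 bases just after TTTATT had 0.816, 0.67, 0.907 and 0.864, the last of these below the value at AATAAA.

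Base composition moved with coverage differently in each library. In 200-base windows of last blocks with under 35% G and C, the mean coverage relative to the block was 0.873, 0.611, 0.91 and 0.822, lowest in the cDNA fragmented colon library. In windows with at least 55% G and C it was 0.755, 0.906, 0.973 and 0.984, lowest in the cDNA fragmented small intestine library. The rRNA-depleted libraries varied less over these classes.

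Reads that begin at the same base on the same strand were counted as 1 start point. The long blocks held 1023498, 976109, 133251 and 226735 start points, and reads covered 47.9%, 48.5%, 23.1% and 33.2% of their bases. After all libraries had been thinned to 258170 reads, there were 1.13, 1.15, 1.94 and 1.64 reads per start point. In the 265 blocks with at least 200 reads in all 4 libraries, 200 reads fell on a median of 194, 192, 129 and 141 start points, and the rRNA-depleted library had fewer in 263 of 265 blocks of each tissue. The reads of the rRNA-depleted libraries were thus stacked on fewer positions. Start points are counted by strand, and the reads of these libraries lay almost only on 1 strand, so fewer start points were open to them. The part of this in the difference was not tested.

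Single positions could still dominate a block in any library. In Nfia, a transcription factor, 1756 of the 4090 reads in the cDNA fragmented small intestine library (42.9%) began at 1 position 3092 bases from the 5' edge, on the strand opposite to the gene. Zbtb44, a zinc finger protein, had 566 of 1299 reads at 1 position in that of colon. Lpgat1, an acyltransferase of phospholipids, had 601 of 2296 in the rRNA-depleted small intestine library. The largest stack, 2088 of 2964 reads (70.4%), was in the rRNA-depleted colon library, in a block at chr15:32170324-32176483 with genes on both strands.

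Strand was kept by the rRNA-depleted libraries only. Among blocks with a gene, 48.9%, 49.5%, 95.7% and 96.6% of reads lay on the strand of that gene, and in blocks of known strand 49.1%, 49.7%, 98.3% and 99.3%. Blocks with genes on both strands had 84.2% and 84.3% in the rRNA-depleted libraries. The lowest shares with at least 50 reads were all in such blocks. That of Gm11194 had 0 of 402 and 0 of 161 rRNA-depleted reads on its strand, which allows up to 3 reads, and those of Zfp385c, Eml5, Fam169a, Fam59b and 2700081O15Rik, all with an annotated gene on the other strand, had at most 6.56% in either library. The reads of these blocks came from the other strand than that of the gene whose name they carry, so their levels are not given as levels of these genes.

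For the tissue comparison the 3-fold rule was used, in which a penalty of 1 RPKM is added to the divisor, for blocks with at least 20 reads in the pair. By cDNA fragmentation 41 of 2157 long blocks (1.9%) passed toward small intestine and 26 (1.21%) toward colon, against 5.86% and 6.17% of all exon blocks. By rRNA depletion 49 of 1934 (2.53%) passed toward small intestine and 95 (4.91%) toward colon, against 8.9% and 15.6% of all. Blocks of 1000 to under 3000 bases had 2.72% and 3.14% and 4.66% and 8.21%. These shares depend on the minimum of 20 reads, which a long block reaches at a lower RPKM than a short one, where the penalty prevents a call. A block can pass at 3 RPKM or more in the higher library, and among such blocks the shares were 3.76% and 2.38% in long blocks against 6.43% and 6.77% in all by cDNA fragmentation, and 3.12% and 6.05% against 9.06% and 15.9% by rRNA depletion. With a penalty of 0.1 RPKM 71 long blocks (3.29%) passed toward small intestine and 88 (4.08%) toward colon by cDNA fragmentation, against 7.51% and 9.87% of all, so the excess toward small intestine turned. By rRNA depletion this penalty gave 93 (4.81%) and 195 (10.1%), against 9.83% and 17.7%. Scaling by the median of ratios shifted the log2 ratios by 0.18 in both protocols and changed the counts to 51 and 24 and to 62 and 72. The excess of colon calls by rRNA depletion thus became smaller with the scaling but kept its direction. In bulk tissue, fewer cells of a type and less RNA per cell cannot be told apart.

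Of the 1894 long blocks with 20 reads in both pairs, 17 (0.898%) were higher in small intestine by both protocols and 19 (1%) in colon by both, against 5.29% and 4.84% of the 27954 exon blocks of all lengths with 20 reads in both pairs. No long block passed in opposite directions, against 0.29% of all. Of the 40 and 26 that passed by cDNA fragmentation, 38 and 25 had the same direction by rRNA depletion. The log2 ratios of the protocols had a Pearson r of 0.58 and a Spearman rho of 0.46 over these blocks, given as a description over blocks, and the pairs share no library.

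**Figure D4:**
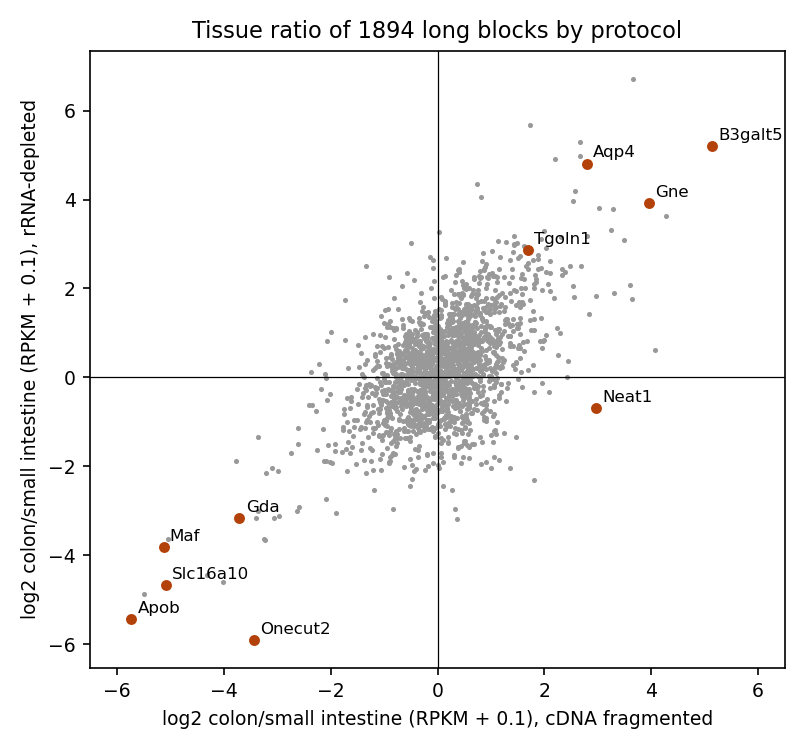
Log2 tissue ratio (colon over small intestine, RPKM) after 0.1 RPKM had been added, by cDNA fragmentation (horizontal) and by rRNA depletion (vertical), for 1894 long blocks with at least 20 reads in both pairs, with blocks discussed in the text named. Apob, Slc16a10 and Maf lie far toward small intestine and B3galt5 and Gne far toward colon by both protocols, while Neat1 lies on opposite sides of 0.

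Of the blocks that passed toward small intestine by both protocols, those with the largest penalised ratios by cDNA fragmentation were Apob, Dab1, Slc16a10, Fam84a and Maf. Apob had 64.9 against 1.12 RPKM by cDNA fragmentation (58-fold, interval 50.6 to 66.9) and 1181 against 27.3 by rRNA depletion (43.3-fold, 40.2 to 46.8). Dab1, an adaptor of reelin signalling (chr4:104414118-104417447), had 18.2 against 0.303 and 15.5 against 0.432 RPKM. Slc16a10, a transporter of aromatic amino acids (chr10:39753341-39757210), had 29.5 against 0.771 and 81.5 against 3.12 RPKM (38.3-fold and 26.1-fold). The transcription factor Maf had 72.4 against 1.97 and 148 against 10.4 RPKM, and Fam84a had 23.8 against 0.625 and 40.7 against 3.18. In each of these 5 blocks the interval of the ratio excluded 1 in both protocols, which is no separate result, since the blocks were picked by these ratios.

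Toward colon, B3galt5 (chr16:96536776-96541465) had the largest penalised ratio by cDNA fragmentation, with 59.7 against 1.6 RPKM by cDNA fragmentation (37.3-fold, interval 32 to 43.7) and 61.2 against 1.57 by rRNA depletion (39-fold, 23.5 to 69.9). Gne, the first enzyme of sialic acid synthesis, had 51.8 against 3.23 and 131 against 8.54 RPKM (16-fold and 15.3-fold). The water channel Aqp4 had 40.5 against 5.75 and 171 against 6.01 RPKM, so its ratio was 7.03-fold (6.44 to 7.69) by cDNA fragmentation and 28.4-fold (21.6 to 38) by rRNA depletion, where its penalised ratio of 24.3 was above the 23.8 of B3galt5. Endod1 had 55.7 against 8.59 and 59.9 against 10.5 RPKM. The level of B3galt5 was close in both protocols, although its 5'/3' ratios were -1.15, -1.09, 0.42 and 0.05.

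Of the noncoding RNAs, 3 had tissue ratios of opposite direction in the protocols. Neat1 (chr19:5842302-5845478), which scaffolds nuclear paraspeckles, had 30.1 and 237 RPKM in small intestine and colon by cDNA fragmentation (7.87-fold higher in colon, interval 7.53 to 8.23), but 137 and 84.8 by rRNA depletion (0.62-fold, 0.565 to 0.681). Malat1 had 43.4 and 66.7 RPKM (1.54-fold) but 892 and 509 (0.571-fold), and Tug1 had 85.3 and 33.3 RPKM (0.39-fold) but 36.4 and 68.9 (1.89-fold). For these 3 RNAs the intervals of both ratios exclude 1. Xist, the RNA that coats the inactive X chromosome of female cells, had 7.64, 0.0684, 0.449 and 0.15 RPKM in its last block and 1.48, 0.0646, 0.0874 and 0.0256 in its other long block, so it was high in the cDNA fragmented small intestine library only. Of the 12 noncoding genes listed, 5 had long blocks, 6 in all, and by cDNA fragmentation 1 block passed toward small intestine (the last block of Xist) and 1 toward colon (Neat1), whereas none of 4 passed by rRNA depletion. Over all exon blocks 5.86% and 6.17% passed by cDNA fragmentation. Within the cDNA fragmented pair, tissue and the animals in a library cannot be told apart for Xist. The Y-linked genes given above had at most 0.845 reads per 1000000 in the library in which Xist was high. In the rRNA-depleted small intestine library Xist had 4.42 reads per 1000000 and the Y-linked genes 19.7 to 62.9. The part of sex in the Xist call was not tested.

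Very long coding exons were listed for 63 genes, of which 37 had 49 long blocks. Of the 34 with enough reads by cDNA fragmentation, 1 passed toward small intestine (Apob) and none toward colon, against 5.86% and 6.17% of all exon blocks. Of 39 by rRNA depletion 3 passed toward small intestine (Apob and both blocks of Plec, which are of 1 gene) and none toward colon, against 8.9% and 15.6% of all. The medians of their log2 tissue ratios (colon over small intestine) were 0.13 and -0.57, against 0.11 and 0.22 over all long blocks tested. Fewer reads at the 5' end were found in 19 of 22 and 15 of 19 of these blocks by cDNA fragmentation and in 7 of 15 and 12 of 19 by rRNA depletion, with medians of -1.60, -1.84, 0.00 and -0.27. Dsp, the desmosome protein desmoplakin, had the same direction in all 4 libraries (-1.59, -1.93, -0.93 and -1.20), while Apc, a suppressor of Wnt signalling, had -0.54, -1.05, 3.36 and 1.43.

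Among regulators with long 3' untranslated regions, 20 of 31 genes had 21 long blocks, and all 21 had enough reads in both pairs. None passed by cDNA fragmentation, against 5.86% and 6.17% of all exon blocks. By rRNA depletion 1 passed toward small intestine and none toward colon, against 8.9% and 15.6%. This was Onecut2, a transcription factor of endodermal epithelium, with 2.25 and 0.116 RPKM by cDNA fragmentation (19.3-fold, interval 13.8 to 28) and 12.9 and 0.118 by rRNA depletion (109-fold, 46.2 to 338), where the colon value rests on 5 reads. Its penalised ratio by cDNA fragmentation, 2.01, was under the limit of 3. The medians of the 5'/3' log2 ratio of these regulators were -2.00, -2.83, 0.66 and -0.43. They rest on the 15, 13, 10 and 11 blocks with enough reads for this ratio, so the blocks differ between libraries. The cell cycle regulator Ccnd2 had 116 and 47.2 RPKM by cDNA fragmentation and 46.7 and 18.5 by rRNA depletion. The insulin receptor Insr had 5'/3' values of -3.60, -4.13, 1.31 and 0.41, and the Argonaute gene Eif2c1 had -5.22, -6.47, -0.42 and 0.25.

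Smooth muscle and stroma genes had 6 long blocks among 19 genes. The median log2 tissue ratio of these blocks was -0.12 by cDNA fragmentation and 1.02 by rRNA depletion, against 0.11 and 0.22 over all long blocks tested. Tns1, which links actin to focal adhesions, had 4.9 and 16.4 RPKM by cDNA fragmentation and 16.8 and 56.3 by rRNA depletion, a ratio of 3.35-fold by both, and was the only one of these blocks to pass the rule, by rRNA depletion, toward colon, as 15.6% of all exon blocks did. Synpo2, an actin-bundling protein of muscle, had 6.38 and 7.72 RPKM (1.21-fold) but 12.6 and 37.8 (2.99-fold). Of 20 epithelial genes, only the desmosomal cadherin Dsg2 had a long block, with 64.2 and 68.4 RPKM by cDNA fragmentation and 91.4 and 181 by rRNA depletion.

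Finally, the tissue ratio was compared between the parts of a block before and after its midpoint, to see whether tissues differed along 1 exon. Of 704 blocks with at least 20 reads on each side in every library, none differed by 1 or more on the log2 scale in the same direction by both protocols, against 0.521% (7 of 1343) of blocks of 1000 to under 3000 bases. When instead both counting intervals had only to exclude 0 in the same direction, 52 blocks qualified (7.39%), 34 with colon relatively higher after the midpoint and 18 with colon relatively lower, against 6.78% of the shorter blocks. Within a single protocol the interval excluded 0 in 298 blocks by cDNA fragmentation and in 152 by rRNA depletion. A difference of 1 or more on the log2 scale was reached by 13 blocks upward and 12 downward by cDNA fragmentation and by 20 and 17 by rRNA depletion, with medians of 0.15 and 0.03. The direction was the same in both protocols in 387 of 704 blocks, with a Pearson r of 0.12 over blocks. By the lesser of both differences, the 3 blocks farthest from 0, named after the values were seen, were those of Zfp664, a zinc finger protein (-1.08 and -0.97), Hnrnpa3, an RNA-binding protein (1.52 and 0.83), and the transcription factor Nfia (0.82 and 1.11). The stack in Nfia lies before the midpoint, and by start points in place of reads its differences were 0.29 and 1.34. By start points those of Hnrnpa3 were 1.39 and 0.97, and those of Zfp664 -1.03 and -0.53, the latter with an interval that holds 0 (-1.41 to 0.35).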

How the data were processed

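The authors deposited matched reads as positions, strands and mismatches, with no normalized values, and tables of exon blocks and junctions. The authors had matched 35 colors per read with up to 3 mismatches to RefSeq exons of mm9 and to exon-exon junctions, and had removed reads with more than 1 placement. Reads outside exons were not analysed here. Reads and start points counted equalled the deposited reports in all 4 libraries.

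A read was assigned to the window that holds its middle base, 17 bases from its start, and reads across junctions were left out. Strand, gene and coding bases were taken from GENCODE M1 on NCBIM37, which is the build of mm9. A single block had to lie in exons of its gene by 50%, and an internal one by 90%. These limits were set after strand values had been seen. A motif was compared over 300 bases beyond a gap of 35 bases, and a ratio needed 100 reads in the block. The members and gene lists were chosen with earlier results of these data known. Also chosen after values were seen were the gap at motifs, the minimum of 20 reads in a pair, the classes by run length, G and C content and kind of block, the Y-linked genes, the shares among blocks that reach 3 RPKM and the stacks at single positions.

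Blocks named were the 5 longest, the 5 with the highest RPKM per library, the 5 of greatest penalised tissue ratio toward either tissue by cDNA fragmentation that also reached 3-fold by rRNA depletion, the 5 with the lowest sense share in each rRNA-depleted library, and those of the lists. The rule for differences between the parts of a block named none. Blocks at stacks were those with the most reads, and blocks at run sites were so within the limits given with the sequences. Of 5 blocks with the greatest length, 3 had under 50% annotated bases and no clear strand and 1 had genes on both strands, and these are not named by gene. Some blocks that these rules select are not reported here. Sequences were read from NCBIM37 by coordinates. The procedures were tested on simulated reads with Python 3.11.15, numpy 2.4.6, pandas 2.3.3, scipy 1.17.1, pysam 0.24.0 and matplotlib 3.10.9. Alternatives were other read minimums, fewer mismatches, start points in place of reads, other windows, penalties and scalings.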

Additional observations from a re-analysis of the deposited data

Results flagged for a closer look

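In 14 of the 91 named blocks examined (annotated exons over at least 50% of the block and at least 50% of rRNA-depleted reads on the strand of the gene), the ratio of colon to small intestine lay above 1 by one protocol and below 1 by the other, with counting intervals that exclude 1 in both. These 14 are 15.4% of the named blocks, whereas 218 of the 1952 long blocks that meet the same conditions (11.2%) and 2.61% of such exon blocks of all lengths had ratios on opposite sides. The share moved with depth, as at 100 reads or more in all 4 libraries it was 21.4% of long blocks and 18.4% of all exon blocks, against 10 of 37 named blocks. There was 1 library per tissue and protocol, so the difference between the protocols was not tested. After scaling by the median of ratios all 14 ratios still lay on opposite sides of 1, and in 9 of the 14 both counting intervals still excluded 1.

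In 8 blocks the ratio was higher by cDNA fragmentation. The nuclear RNAs Neat1 and Malat1 had 7.87-fold and 1.54-fold by cDNA fragmentation and 0.62-fold and 0.571-fold by rRNA depletion. The last exon of Plec had 1.76-fold and 0.257-fold, and the internal exon of Srrm2 had 1.81-fold and 0.363-fold. The last exon of Akap13, an anchor of protein kinase A, had 1.51-fold and 0.64-fold. In these 5 blocks both intervals excluded 1 after the scaling as well, whereas an interval came to hold 1 in 3 others, namely Golgb1 with 1.15-fold and 0.36-fold, the microRNA-processing enzyme Dicer1 with 1.4-fold and 0.633-fold, and the RNA helicase Ddx6 with 1.16-fold and 0.768-fold.

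The ratio was lower by cDNA fragmentation in the other 6 blocks. Tug1 had 0.39-fold by cDNA fragmentation and 1.89-fold by rRNA depletion, Elavl1 had 0.767-fold and 1.47-fold, and Ctsb, whose block has genes on both strands, had 0.977-fold and 2.03-fold. Qk, an RNA-binding protein, had both of its long last blocks in this group. That at chr17:10399336-10402496 had 0.545-fold and 3.64-fold and both intervals excluded 1 after the scaling, as did those of Tug1, Elavl1 and Ctsb. Its block at chr17:10403045-10408339 had 0.649-fold and 1.88-fold and Apc had 0.842-fold and 1.15-fold, and in each of these an interval held 1 after the scaling.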

How the results depend on the processing

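With 1 library per group the depth of the rRNA-depleted libraries limits weak blocks, and values whose counting intervals overlap were not separated. No paired test was run, because each group has 1 library and the groups share a single replicate number. Among signed values the direction changed at A runs in the rRNA-depleted small intestine library, where the interval of the median held 0 throughout. For the share of blocks with fewer reads at the 5' end, 31 of 36 values stayed within the interval over blocks of the main setting. A minimum of 500 reads gave 36.4% and 27.1% in the rRNA-depleted small intestine and colon libraries, start points in place of reads gave 27.1% in the latter, and end windows of 500 bases gave 65.5% in the cDNA fragmented colon library and 26.8% in the rRNA-depleted one. For tissue differences, a penalty of 0.1 RPKM gave 71 and 88 blocks by cDNA fragmentation and 93 and 195 by rRNA depletion (small intestine, then colon), which turned the excess by cDNA fragmentation toward colon, and the other 24 counts stayed within 1.5 times. Reads per start point without thinning were 1.48, 1.54, 1.94 and 1.91, and with at most 1 mismatch 1.1, 1.11, 1.82 and 1.54. Sense shares were 48.3%, 49.2%, 97% and 97.2% with at most 1 mismatch, 49.1%, 49.7%, 98% and 99.1% without blocks that have a gene on the other strand, 49.4%, 49.9%, 100% and 100% as medians over blocks, and 49.1%, 49.7%, 98.3% and 99.3% in blocks of known strand (added after the data were seen). Differences between the parts of a block numbered 1 with the outer parts of 3 equal parts, 1 with at most 1 mismatch, and 52 when only both counting intervals had to exclude 0 in the same direction (34 toward the 3' part in colon and 18 against it, added after the data were seen). At motifs 60 of 64 values stayed. Windows of 200 bases gave 0.00 at the reverse complement of AATAAA in the rRNA-depleted colon library and -0.14 at A runs in that of small intestine, where no gap gave -0.22, and no gap gave -0.65 at T runs in the cDNA fragmented small intestine library (both added after the data were seen).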
